A study of Mus musculus with 6 samples.

Results

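The genes described here encode enzymes of cholesterol synthesis and proteins that sense, store or move sterols in the liver. The 28 members were found by gene symbol among the 55802 rows of a table of read counts, and all 28 were among the 15579 genes with enough counts to be tested. They comprise 8 enzymes of the mevalonate pathway, 11 enzymes that turn its product into sterols, 4 regulators of the SREBP system, and 5 genes of sterol transport, esterification and efflux. Apart from 5 lists of neighbouring genes described further below, other genes of these pathways were not analysed here. The libraries came from messenger RNA of livers of wild-type C57BL/6 mice. In the CCl4 group, 3 libraries came from mice given carbon tetrachloride, a liver toxin that becomes harmful once hepatocytes metabolise it and that serves as a model of liver injury and scarring. The 3 control libraries came from mice given oil. The labels give no dose, duration, age or sex, and nothing in them ties each library to an animal of its own. The p-values therefore rest on the spread among libraries, some of which may be technical.

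Cholesterol is built in hepatocytes from acetyl-CoA, by way of mevalonate, farnesyl pyrophosphate, squalene and lanosterol. The transcription factor SREBP2 switches the enzyme genes on together. It is made as a precursor in the membrane of the endoplasmic reticulum, where SCAP escorts it to the Golgi for cleavage when sterols are scarce, and INSIG proteins hold SCAP back when sterols are plentiful. The related factor SREBP1 acts mainly on fatty acid synthesis, and the nuclear receptor LXR answers high sterol levels by raising genes of efflux and excretion. The liver is the main organ that makes cholesterol for lipoproteins and turns it into bile acids.

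Library totals ran from 18929972 to 20042731 counts. Levels are given as CPM, counts per 1000000 after scaling of the libraries by the TMM method. The 10 hepatocyte markers were all present, with summed levels of 121084 to 129586 CPM in CCl4 libraries and 113601 to 118548 CPM in controls. Of 11 macrophage markers, 10 were higher after CCl4, and their summed level was 1038 to 1105 CPM, against 339.9 to 428 CPM in controls. Of 9 stellate cell markers 8 were higher (1083 to 1169 CPM, against 261 to 322 CPM), and 4 of 5 cholangiocyte markers were higher (252 to 333 CPM, against 50.3 to 93.6 CPM). Likewise higher were 4 of 4 neutrophil markers, 5 of 5 proliferation markers and 1 of 6 lymphocyte markers, while 1 of 6 endothelial markers was lower. No marker was at 0 in all libraries. In whole liver, fewer cells of a type and less RNA per cell cannot be told apart, and the part of these other cell types in the results below was not tested. CCl4 replicate 3 stood apart from CCl4 replicates 1 and 2, as set out below, and results that rest on it are given with and without it.

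The cholesterol genes that changed were lower in the CCl4 livers. Of the 28 genes, 11 (39.3%) fell and 0 rose in edgeR's quasi-likelihood test at an adjusted p under 0.05. Over all genes tested, 20.1% were called lower and 21.2% higher, 41.3% in all. At an unadjusted p under 0.05, 14 members were lower and 0 higher, and DESeq2 and limma-voom each called 14 lower and 0 higher. The median log2 fold change, CCl4 over control, was -0.35 over the members and 0.00056 over all genes tested. All 3 CCl4 libraries lay below all 3 controls for 14 members (50%), as they did for 26.4% of all genes tested. The reverse, CCl4 above control, held for 0 members and for 27.6% of all genes, so that the groups were apart in 1 or the other direction for 54.0% of all genes. The genes that fell were Pmvk, Idi1 and Ggps1 of the mevalonate pathway, Cyp51, Tm7sf2, Nsdhl, Hsd17b7, Ebp and Sc5d of sterol synthesis, and the regulators Scap and Insig2. With library size alone in place of TMM the median of all genes moved to 0.147, and 5 members were called lower (Pmvk, Tm7sf2, Nsdhl, Scap and Insig2) and 2 higher (Abca1 at 0.18 and Lcat at 0.21). Relative to the median of all genes, the members' median was -0.35 with TMM and -0.34 with library size alone.

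**Figure D1:**
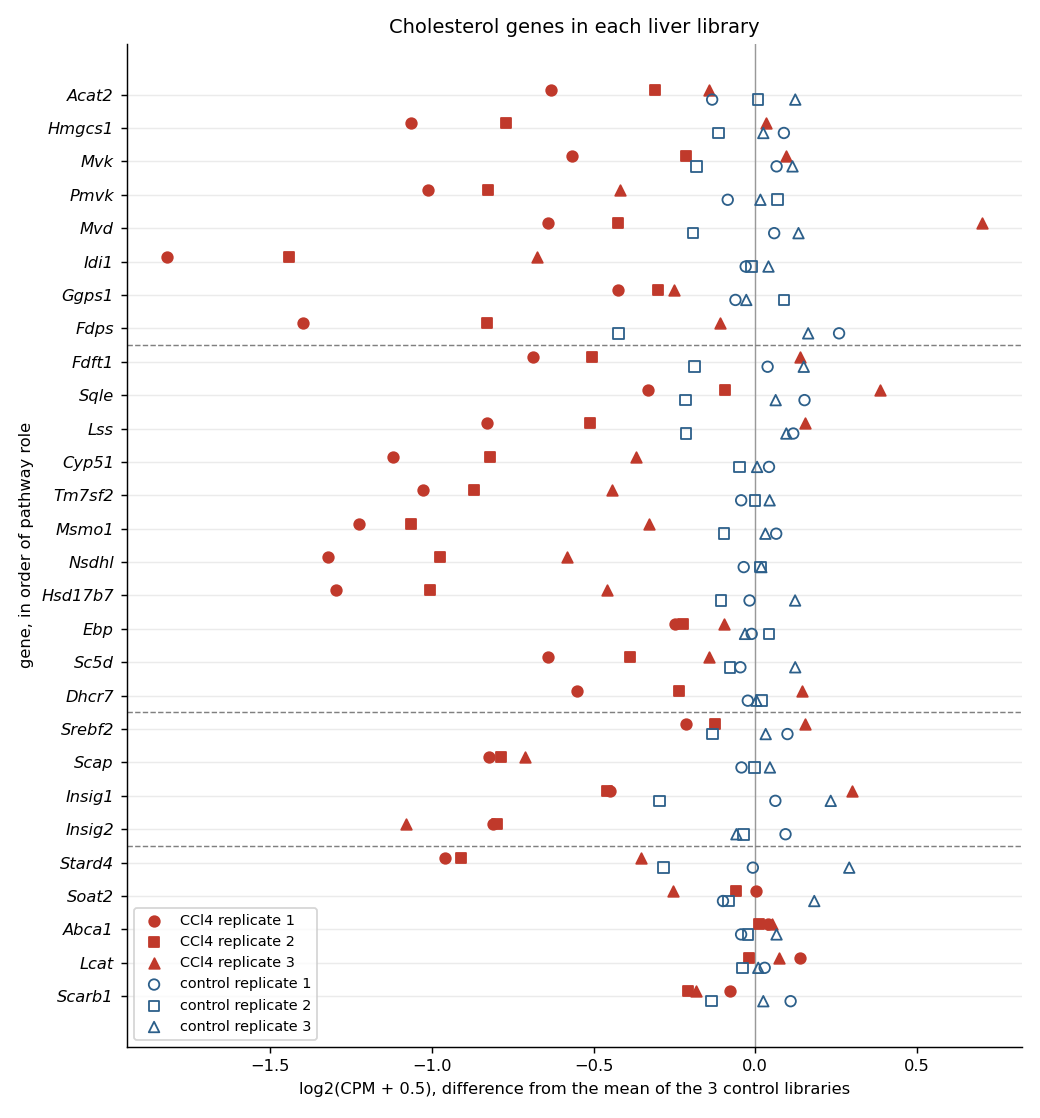
Level of each of the 28 genes in each library, as log2(CPM + 0.5) minus the mean of the 3 controls, with red filled symbols for CCl4 and blue open symbols for control libraries. Among the 19 synthesis enzymes (the upper 2 blocks) the circle of CCl4 replicate 1 is always the leftmost red symbol and the triangle of CCl4 replicate 3 the rightmost.

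In the mevalonate pathway, 3 of 8 enzymes (37.5%) fell, against 20.1% of all genes tested. The fitted change of all 8 was at or below 0, from -1.24 to -0.00056, although Mvd was above 0 with 2 other scalings. Idi1 (ENSMUSG00000058258), the isomerase that makes the 2 building blocks of all isoprenoids interchangeable, had 45.5, 59.2 and 101 CPM in CCl4 replicates 1, 2 and 3, against 158, 160.5 and 166 CPM in controls. Its largest CCl4 value lay well under its smallest control value, and its controls were nearly level. Idi1 fell 2.36-fold (log2 fold change -1.24, SE 0.32, adjusted p = 0.0339). Pmvk (ENSMUSG00000027952), phosphomevalonate kinase, had 25.7, 29.3 and 39.0 CPM after CCl4, against 49.2, 54.8 and 52.9 CPM in controls (-0.74, SE 0.15, adjusted p = 0.00639). Ggps1 (ENSMUSG00000021302), which makes the geranylgeranyl group for proteins and is not on the route to sterols, had 11.4, 12.5 and 12.97 CPM, against 14.9, 16.5 and 15.2 CPM (-0.34, SE 0.09, adjusted p = 0.0138). For both genes the groups did not overlap.

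The other mevalonate enzymes did not pass the test, and in most of them CCl4 replicate 3 lay with the controls. Hmgcs1 (ENSMUSG00000093930), the cytosolic HMG-CoA synthase, had 325, 398 and 695 CPM in CCl4 libraries, against 723, 628 and 692 CPM in controls. CCl4 replicate 3 was thus at the control level, while CCl4 replicates 1 and 2 lay far below it (-0.53, SE 0.31, adjusted p = 0.242). Mvd (ENSMUSG00000006517), the decarboxylase that makes isopentenyl pyrophosphate, had 18.7, 21.9 and 48.3 CPM, against 30.8, 25.8 and 32.4 CPM. Here CCl4 replicates 1 and 2 were below every control and replicate 3 above every control, so that the group means were alike, at 29.6 ± 16.2 CPM after CCl4 and 29.7 ± 3.47 CPM in controls (SD, n = 3 each). The mevalonate kinase gene Mvk (17.1, 21.96 and 27.3 CPM, against 26.8, 22.5 and 27.7 CPM) had an adjusted p of 0.359. Acat2, the cytosolic thiolase of the first step, had 49.4, 61.9 and 69.5 CPM, against 70.0, 77.3 and 83.8 CPM. Its groups did not overlap, but it missed the threshold (-0.35, SE 0.13, adjusted p = 0.0605). Reads could be shared uncertainly with its neighbour and near copy Acat3, which had 146, 157 and 154 CPM, against 179.98, 187 and 185 CPM. Fdps, farnesyl pyrophosphate synthase, had 7.06, 10.7 and 17.98 CPM, against 23.4, 14.4 and 21.8 CPM (adjusted p = 0.203). Of its annotated exon bases, 26.7% are shared with another gene on the same strand, which had at most 1 count per library.

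Of the 11 enzymes from squalene onwards, 6 fell (54.5%, against 20.1% of all genes) and 0 rose. Those that fell all act after lanosterol. Cyp51 (ENSMUSG00000001467), the lanosterol demethylase, had 131, 162 and 221 CPM after CCl4, against 295, 277 and 287 CPM in controls (-0.74, SE 0.19, adjusted p = 0.0218). Tm7sf2 (ENSMUSG00000024799), a sterol reductase that follows it, had 67.4, 75.3 and 101 CPM, against 134, 138 and 142 CPM (-0.76, SE 0.14, adjusted p = 0.00560). In both genes the highest CCl4 library stood clear of the lowest control. Nsdhl (ENSMUSG00000031349), which with Msmo1 and Hsd17b7 removes methyl groups from the sterol ring, had 42.8, 54.6 and 71.8 CPM, against 105, 109 and 109 CPM. It fell 1.91-fold (-0.93, SE 0.18, adjusted p = 0.00884), the greatest fall among the sterol synthesis enzymes. Hsd17b7 (ENSMUSG00000026675) had 43.3, 53.1 and 77.8 CPM, against 106, 99.4 and 117 CPM (-0.89, SE 0.23, adjusted p = 0.0301). Msmo1, the methylsterol oxidase of the same complex, had 117, 130.2 and 217 CPM, against 285, 255 and 279 CPM. Its groups did not overlap either, yet it missed the threshold (-0.82, SE 0.26, adjusted p = 0.0533).

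Falls were smaller in 2 later enzymes. Sc5d (ENSMUSG00000032018), the desaturase of the late pathway, had 617, 736 and 871 CPM, against 932, 911 and 1048 CPM (-0.38, SE 0.12, adjusted p = 0.0360). Ebp (ENSMUSG00000031168), the sterol isomerase, had 170.3, 173 and 189 CPM, against 201, 209 and 198 CPM (-0.19, SE 0.06, adjusted p = 0.0321). Both had groups that did not overlap, and the change of Ebp was the least among the genes that fell. Dhcr7, the reductase of the last step, had 66.6, 82.9 and 108 CPM, against 96.2, 99.1 and 98.1 CPM, so that its CCl4 libraries lay on both sides of the controls (adjusted p = 0.425).

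The 3 enzymes that act before the demethylation of lanosterol did not pass the test. Fdft1, squalene synthase, had 113, 128 and 199.8 CPM, against 186, 159 and 202 CPM (-0.31, adjusted p = 0.359). Sqle, squalene epoxidase, a control point of the pathway, had 86.5, 102 and 143 CPM, against 121, 93.8 and 114 CPM (0.01, 95% interval -0.52 to 0.54, adjusted p = 0.977). Lss, lanosterol synthase, had 51.7, 64.5 and 103 CPM, against 100.1, 79.4 and 98.6 CPM (-0.35, adjusted p = 0.396). In Sqle and Lss the highest of all 6 libraries was CCl4 replicate 3. Fdft1 shares 18.3% of its exon bases with the opposite-strand gene Ctsb, a lysosomal protease that had 1059, 1051 and 1052 CPM after CCl4, against 579, 575 and 599 CPM in controls (0.85, adjusted p = 9.65e-06). No source used here gives the strand setting of the counting, so reads from those bases cannot be assigned with certainty.

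**Figure D2:**
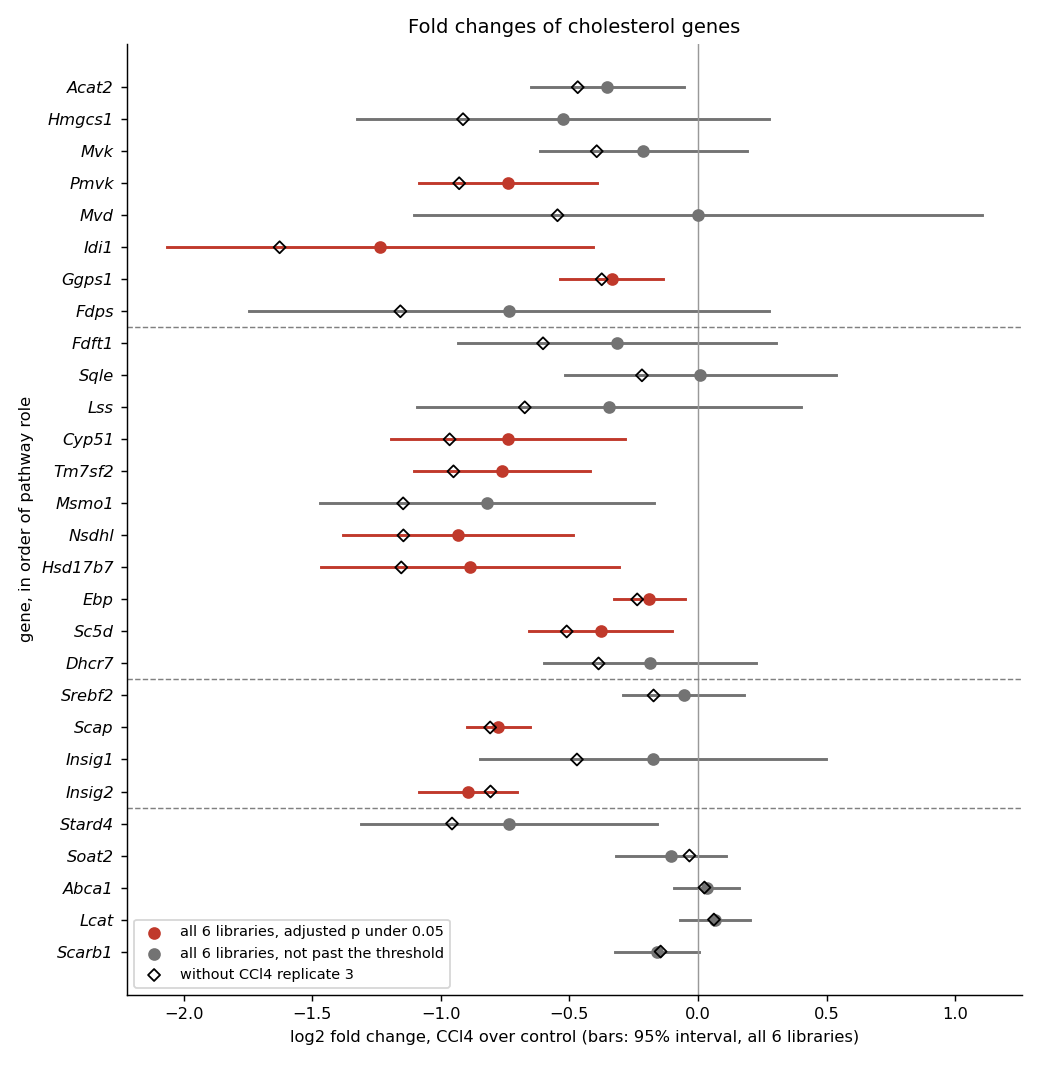
Log2 fold changes, CCl4 over control, of the 28 genes from all 6 libraries (filled points, red where the adjusted p was under 0.05, with 95% intervals as bars) and without CCl4 replicate 3 (open diamonds). The diamonds of all 19 synthesis enzymes lie to the left of their points, while those of Scap, Abca1, Lcat and Scarb1 lie close to theirs.

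The enzymes varied together among the CCl4 livers. In 19 of 19 synthesis enzymes CCl4 replicate 1 was the lowest and CCl4 replicate 3 the highest of the CCl4 libraries, an arrangement seen in 20.1% of all genes tested. The controls showed no arrangement shared by all enzymes: the highest control was replicate 1 for 6 enzymes, replicate 2 for 4 and replicate 3 for 9. They did lean to a weaker order. Control replicate 2 was the lowest control for 11 enzymes (57.9%, against 34.6% of all genes). Control replicate 3 was the lowest for 1 (5.26%, against 34.8%). Summed over the 19 enzymes, the level was 2006, 2377 and 3314 CPM in CCl4 replicates 1, 2 and 3, against 3658, 3429.5 and 3784 CPM in controls. All 3 sums after CCl4 were thus below all 3 control sums, with CCl4 replicate 3 much nearer to the controls than to CCl4 replicate 1. In CCl4 replicate 1 the median enzyme lay 0.83 below the mean of the controls on the log2(CPM + 0.5) scale and 19 of 19 lay below the range of the controls. In CCl4 replicate 2 the median was 0.51 below and 18 lay below that range. In CCl4 replicate 3 the median was 0.14 below, 11 enzymes lay under the range of the controls and 4 above it.

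The spread shows the same in another form. The ratio of the highest to the lowest CCl4 library had a median of 1.68 over the 19 enzymes, and the same ratio in controls had a median of 1.15. Over the 8324 genes tested with a mean of at least 10 CPM, these medians were 1.12 and 1.11. The SD of log2 CPM was larger after CCl4 than in controls for 19 of 19 enzymes, and for 51.1% of those genes. The ratio in CCl4 libraries was greatest for Mvd (2.58), Fdps (2.55), Idi1 (2.22) and Hmgcs1 (2.14), and least for Ebp (1.11) and Ggps1 (1.13). Over the same libraries the proliferation markers stood at 162, 181 and 85.3 CPM in sum, so that CCl4 replicate 3 was the lowest there. The stellate cell markers stood at 1083, 1098 and 1169 CPM in sum and the cholangiocyte markers at 252, 291 and 333 CPM. Both sums had CCl4 replicate 1 lowest and replicate 3 highest, as in the enzymes. Among the single markers of these lists only Col3a1, Epcam and Spp1 had that order, while Acta2 and Sox9 had its reverse. The sums of the hepatocyte markers, at 129586, 123823 and 121084 CPM, and of the neutrophil markers, at 30.4, 27.8 and 27.3 CPM, had the reverse arrangement. Of the single hepatocyte and neutrophil markers, only Apoa1, Tf, Fgb, Hnf4a and S100a8 had that reverse order. Ttr (5208, 5384 and 5814 CPM) had the order of the enzymes, and the other hepatocyte and neutrophil markers had neither. The sums of the macrophage (1105, 1038 and 1101 CPM), endothelial (228, 205 and 221 CPM) and lymphocyte markers (10.3, 8.75 and 10.7 CPM) had CCl4 replicate 2 lowest, again not in every marker. What part any of these has in the spread of the enzymes was not tested.

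The number of calls depended on single libraries. Without CCl4 replicate 3, 21 of 28 members and 18 of 19 enzymes were called lower, Sqle being the exception (-0.22, adjusted p = 0.215). In that fit 19.5% of all genes were called lower, so the rise in calls was not shared by genes at large. The median log2 fold change in that fit was -0.57 over the members and -0.67 over the enzymes, against -0.38 over the enzymes with all libraries. All 11 members that fell in the full fit kept their calls in it. The enzymes called there and not in the full fit were Hmgcs1 (-0.91, adjusted p = 7.01e-05), Msmo1 (-1.15, adjusted p = 8.09e-07), Fdft1 (-0.60, adjusted p = 0.00214), Mvd (-0.55, adjusted p = 0.00296), Dhcr7 (-0.39, adjusted p = 0.00464), Acat2 (adjusted p = 0.0124), Lss (adjusted p = 0.0124), Mvk (adjusted p = 0.0340) and Fdps (adjusted p = 0.0410). Leaving out another library ended calls instead. Over all genes tested, 3124 were called lower in the full fit and 2443 to 2883 in these fits. Without CCl4 replicate 1, 8 members were called, and Ebp (adjusted p = 0.114), Sc5d (0.0720) and Ggps1 (0.0562) were lost. The count was 6 without CCl4 replicate 2, control replicate 1 or control replicate 3, and 8 without control replicate 2. Idi1 and Hsd17b7 were lost in each of these 4 fits, with adjusted p of 0.0751 to 0.0975 for Idi1 and 0.0646 to 0.0889 for Hsd17b7. The calls of Cyp51 (0.0560 to 0.0654), Ebp (0.0510 to 0.113) and Sc5d (0.0534 to 0.111) were lost in the same 4 fits. Pmvk, Tm7sf2, Nsdhl, Scap and Insig2 were called in every fit that left out 1 library.

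Levels can be set between genes only per length, so counts were divided by the annotated exon length (GENCODE M21) and are given here as means in CPM per kilobase. By this measure Sc5d was the most abundant of the enzymes, at 152 after CCl4 and 198 in controls, before Hmgcs1 (103 and 148), Ebp (76.9 and 87.7) and Cyp51 (38.8 and 64.8). Ggps1 (2.61 and 3.29) and Fdps (2.83 and 4.72) were the lowest. Among all members Lcat stood highest (234 and 223.5).

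Of the 4 regulators, Scap and Insig2 fell, with the smallest adjusted p-values of all members, and Srebf2 and Insig1 did not pass the test. Scap (ENSMUSG00000032485), the escort of the SREBP precursors, had 80.5, 82.5 and 87.0 CPM after CCl4, against 139, 142 and 147 CPM in controls. The CCl4 libraries were close to each other and far below the controls, and replicate 3 was not set apart (-0.78, SE 0.06, adjusted p = 1.22e-05). Insig2 (ENSMUSG00000003721), a retention protein whose liver transcript is known in mice to be repressed by insulin, had 196, 198 and 163 CPM, against 368, 337 and 331 CPM. It fell 1.86-fold (-0.89, SE 0.08, adjusted p = 5.64e-05), and CCl4 replicate 3, the highest of its group for every synthesis enzyme, was the lowest here. Scap and Insig2 kept their calls in all 15 alternative analyses.

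Insig1 (ENSMUSG00000045294), the other retention protein and itself a known target of SREBP2, had 435, 432 and 730.2 CPM, against 620.2, 484 and 698 CPM. As in 18 of the 19 enzymes, CCl4 replicates 1 and 2 were below all controls (-0.17, 95% interval -0.85 to 0.50, adjusted p = 0.643). CCl4 replicate 3 was the highest of its group, as in every enzyme, and here also the highest of all 6 libraries, as in 4 enzymes. Srebf2 (ENSMUSG00000022463), which encodes SREBP2, had 64.5, 68.6 and 83.4 CPM, against 80.2, 68.2 and 76.5 CPM (-0.06, 95% interval -0.29 to 0.18, adjusted p = 0.695). Its groups overlapped, and CCl4 replicate 3 was again the highest library. Transcript levels do not show how much of the SREBP2 protein was cleaved.

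**Figure D3:**
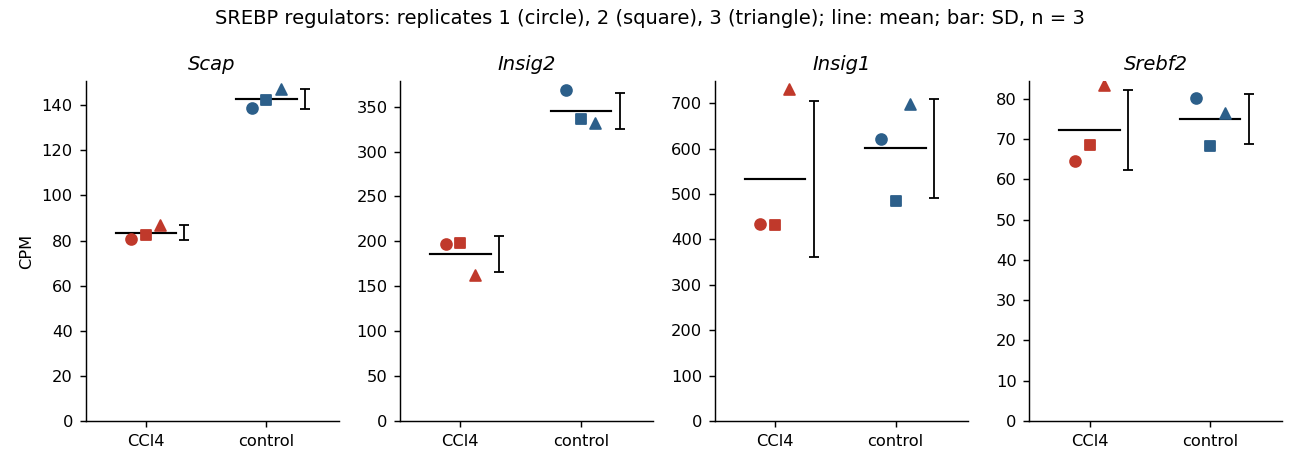
CPM of Scap, Insig2, Insig1 and Srebf2 in each CCl4 and control library (symbols by replicate number), with the mean as a line and the SD (n = 3) as a bar. Scap and Insig2 lie lower in all CCl4 libraries, whereas for Insig1 the CCl4 libraries range from 432 to 730.2 CPM around the controls.

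None of the 5 genes of sterol transport, esterification and efflux passed the test in edgeR, where 41.3% of all genes did. The test gave 0 higher and 0 lower (0 and 1 at an unadjusted p under 0.05). The groups did not overlap in 54.0% of all genes, 26.4% with CCl4 below, and in 1 of the 5 (20%), with CCl4 below. That gene, Stard4, a carrier of cholesterol between membranes and a known SREBP2 target, had 99.0, 103 and 151 CPM after CCl4, against 192, 158 and 236 CPM in controls (-0.73, SE 0.23, adjusted p = 0.0517). Stard4 was called lower without CCl4 replicate 3 (-0.96, adjusted p = 0.0146), without control replicate 2 (-0.87, adjusted p = 0.0384), in DESeq2 and in limma-voom. Its replicates were arranged like those of the enzymes. The remaining genes varied little. Abca1, which exports cholesterol to nascent HDL, had 257, 252 and 259 CPM, against 242, 246 and 262 CPM (0.03, 95% interval -0.09 to 0.16, adjusted p = 0.660). Lcat, the plasma enzyme that esterifies cholesterol on HDL, had 330.1, 296 and 316 CPM, against 306, 292 and 302 CPM (0.07, 95% interval -0.07 to 0.20, adjusted p = 0.423). For Soat2, the esterifying enzyme of hepatocytes, the values were 71.9, 68.8 and 60.0 CPM, against 66.9, 67.6 and 81.4 CPM (-0.11, 95% interval -0.32 to 0.11, adjusted p = 0.401). Scarb1, the HDL receptor, had 178, 163 and 166 CPM, against 203, 171 and 191 CPM (-0.16, SE 0.07, adjusted p = 0.111). It was called lower without control replicate 2 (-0.23, adjusted p = 0.0316).

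Wider lists place these genes among their neighbours. Of 17 tested genes with known SREBP sites or a known response to SREBP, which include fatty acid synthesis genes, 6 (35.3%) fell and 0 rose. Over all genes tested, 20.1% fell and 21.2% rose. The median log2 fold change was -0.35 over these 17 genes. At an unadjusted p under 0.05 in edgeR 1 of them was higher, and DESeq2 called 1 higher and limma-voom 0. Without CCl4 replicate 1 the count higher was 2, and it was 1 without any 1 of the controls. Acss2, Rdh11, Pcyt2, Fads1, Fads2 and Me1 were those that fell. Pcyt2, an enzyme of phosphatidylethanolamine synthesis, had 382, 409.7 and 414 CPM after CCl4, against 588, 529.5 and 576 CPM in controls (-0.49, SE 0.07, adjusted p = 3.80e-04). Scd1, a fatty acid desaturase, had 6235, 8158 and 9779 CPM, against 6471, 8049 and 9913 CPM (-0.02, adjusted p = 0.962). Its CCl4 and control libraries covered nearly the same range. CCl4 replicate 1 was the lowest and replicate 3 the highest of the CCl4 libraries in 16 of 17 of these genes (94.1%), as in the synthesis enzymes. Relative to the control mean the median of the list lay 0.55 below, 0.38 below and 0.01 above in CCl4 replicates 1, 2 and 3. Control replicate 3 was the highest control in 13 of the 17 genes.

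The other lists did not show that arrangement to this extent. In 15 genes of the isoprenoid branches, which draw farnesyl groups for dolichol, ubiquinone and protein prenylation, it was seen in 1 gene. Of these genes 4 (26.7%) fell and 1 (6.67%) rose, with a median of 0.01, where 20.1% of all genes fell and 21.2% rose. The count that fell was 1 without control replicate 1 or control replicate 3, 2 without any 1 of the CCl4 libraries, 3 without control replicate 2, and 1 in DESeq2. The count that rose was 0 without any 1 of the controls and in DESeq2. Rabggtb, a subunit of a Rab prenylating enzyme, had 38.3, 39.2 and 36.3 CPM after CCl4, against 50.8, 53.5 and 48.0 CPM in controls (-0.42, SE 0.06, adjusted p = 6.12e-04). Pdss1, of the synthesis of the ubiquinone tail, had 3.88, 3.96 and 5.01 CPM, against 2.77, 3.03 and 3.02 CPM (0.54, SE 0.16, adjusted p = 0.0253). It missed the threshold when CCl4 replicate 3 was left out (adjusted p = 0.0688), when any 1 of the controls was (0.0533 to 0.0835), and in DESeq2 (0.0758). Nus1, a subunit of the dolichol-making enzyme, was at 65.04 ± 4.31 CPM after CCl4 and 64.7 ± 1.46 CPM in controls (SD, n = 3 each).

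Of 15 tested genes of SREBP processing and sterol sensing, 7 (46.7%) fell and 2 (13.3%) rose, with a median of -0.08. Over all genes tested, 20.1% fell and 21.2% rose. CCl4 replicate 1 was lowest and replicate 3 highest in 5 of the 15 genes (33.3%), and in 20.1% of all genes. The count that fell was 4 without CCl4 replicate 1, control replicate 2 or control replicate 3, and the count that rose was 1 without control replicate 1. Akap8l had 40.8, 39.3 and 40.5 CPM, against 58.8, 55.5 and 58.6 CPM (-0.52, SE 0.05, adjusted p = 8.42e-05). Rnf145, a ubiquitin ligase known in mouse liver to act on SCAP, had 40.02, 39.9 and 45.0 CPM, against 22.4, 26.3 and 26.6 CPM (0.73, SE 0.08, adjusted p = 1.55e-04). Both had groups that did not overlap.

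In the list of LXR genes, sterol efflux and HDL, 8 of 15 genes (53.3%) fell, where 20.1% of all genes did. The 3 that rose (20%) were a share close to the 21.2% of all genes. The median of the list was -0.20. The arrangement of replicates described above was seen in 3 of its genes (20%), and in 20.1% of all genes. Abcg8, which with Abcg5 forms the pump that secretes sterols into bile, had 27.97, 28.3 and 25.5 CPM after CCl4, against 112, 102 and 135 CPM in controls (-2.09, SE 0.11, adjusted p = 6.40e-06). Abcg5, named after its values were seen because it is the partner of Abcg8, had 45.0, 44.5 and 44.4 CPM, against 89.2, 76.7 and 109 CPM (-1.04, SE 0.12, adjusted p = 4.16e-04). Both parts of the pump thus fell with no overlap of the groups, and without a departure of CCl4 replicate 3. Abcg1, a sterol exporter known from macrophages, had 20.1, 21.8 and 18.8 CPM, against 8.36, 8.21 and 8.59 CPM (1.27, SE 0.09, adjusted p = 1.13e-05). Apoa1, the main protein of HDL and also 1 of the 10 hepatocyte markers, was at 4774 ± 949 CPM after CCl4 and 6163 ± 457 CPM in controls (SD, n = 3 each; adjusted p = 0.0775), and was called lower without CCl4 replicate 1 (adjusted p = 0.0439) or CCl4 replicate 3 (adjusted p = 0.0398), and in DESeq2 (adjusted p = 0.0181).

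Among 16 genes of sterol transport inside the cell and of sterol esters, 5 (31.2%) fell, where 20.1% of all genes did. The 3 that rose (18.8%) were a share close to the 21.2% of all genes. The median of the list was -0.06. The count that fell was 3 without CCl4 replicate 2 and 2 without control replicate 1. Scp2, a sterol and lipid carrier of peroxisomes, had 2223, 2504 and 2109 CPM, against 4363, 4314 and 4334 CPM (-0.93, SE 0.08, adjusted p = 2.50e-05). Soat1, the esterifying enzyme found in macrophages and most other cells, had 20.2, 19.5 and 17.4 CPM, against 6.39, 7.51 and 6.89 CPM (1.46, SE 0.10, adjusted p = 1.08e-05). The rises of Soat1 and Abcg1 stand beside the higher macrophage markers given above, whose part in them was not tested. Over these 5 lists, 30 genes were called lower and 9 higher. With library size alone these numbers were 13 and 16.

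**Figure D4:**
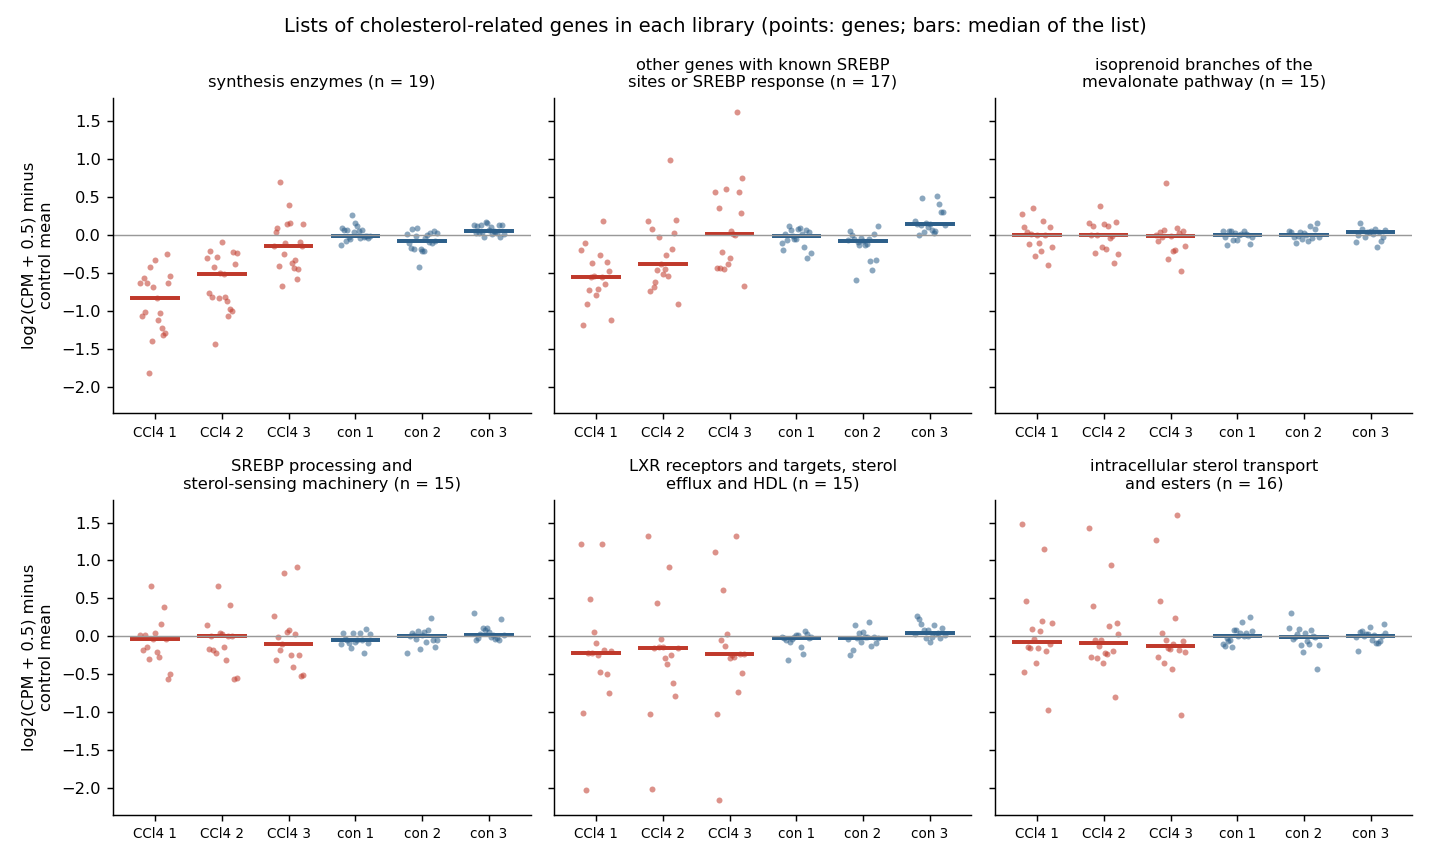
For 6 lists, each gene (point) in each library as log2(CPM + 0.5) minus its mean in controls, with the median of the list as a bar, CCl4 in red and control (con) in blue. In the synthesis enzymes and the other SREBP genes the 3 CCl4 libraries lie at different heights, with medians of -0.83, -0.51 and -0.14 for the enzymes, whereas in the other 4 lists their medians are close to each other.

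Because the enzymes moved together, their promoters were searched for 3 motifs on both strands, in RefSeq windows on GRCm38.p6 that hold 250 bases before and 50 after each annotated start. Windows were held for 22 of the 28 members and for 16 of the 19 enzymes, some genes having several starts. These windows were matched to the members by symbol, since no source used here names the build that the counts were made on. The NF-Y box (CCAAT), bound by a factor known to act beside SREBP2, was present for 15 of the 16 enzyme genes (93.8%), Acat2 being the exception, and for 41.1% of all 27025 genes in the table. Within 100 bases before the start it was present for 14 of the 16 (87.5%) and for 21.6% of all genes. The E-box (CACGTG) was present for 3 of the 16 enzymes (18.8%) and for 8.09% of all genes. The sterol regulatory element core, searched as TCACNCCAC, was found for Hmgcs1 alone (6.25% of the enzymes) and for 1.44% of all genes. Sterol elements are known to vary in sequence, and these shares are descriptions, with no test. The motifs overlap neither each other nor the start in the sequences shown here.

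The sequences just before the start of 10 members are printed to show where the boxes lie, 5′ to 3′ on the strand of the gene, with NF-Y boxes (CCAAT or ATTGG), the sterol element and E-boxes in capitals. Hmgcs1 carries the sterol element between a pair of NF-Y boxes. Idi1, Nsdhl, Hsd17b7, Cyp51 and Tm7sf2 are enzymes that fell. In Mvd and Lss, CCl4 replicate 3 was the highest of all libraries. Insig1 and Insig2 are the paired regulators that differed in how CCl4 replicate 3 was placed. The Insig2 sequence belongs to the first of its 3 listed starts.
Hmgcs1 (chr13:119690171-119690350, plus strand): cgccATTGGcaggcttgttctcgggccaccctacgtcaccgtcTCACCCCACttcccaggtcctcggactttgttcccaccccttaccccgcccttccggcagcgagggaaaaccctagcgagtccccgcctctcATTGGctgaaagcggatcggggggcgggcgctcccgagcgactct
Idi1 (chr13:8885456-8885605, plus strand): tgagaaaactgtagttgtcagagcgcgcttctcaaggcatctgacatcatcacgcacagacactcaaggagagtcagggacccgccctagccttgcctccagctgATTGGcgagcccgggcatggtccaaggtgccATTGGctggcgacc
Nsdhl (chrX:72918371-72918520, plus strand): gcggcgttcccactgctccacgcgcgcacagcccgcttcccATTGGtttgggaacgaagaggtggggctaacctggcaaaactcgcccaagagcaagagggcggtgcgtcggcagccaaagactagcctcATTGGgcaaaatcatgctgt
Hsd17b7 (chr1:169969206-169969385, minus strand): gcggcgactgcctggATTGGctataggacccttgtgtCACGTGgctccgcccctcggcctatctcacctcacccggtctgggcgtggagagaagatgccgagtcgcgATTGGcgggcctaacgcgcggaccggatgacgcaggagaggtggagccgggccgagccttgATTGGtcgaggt
Cyp51 (chr5:4104698-4104847, minus strand): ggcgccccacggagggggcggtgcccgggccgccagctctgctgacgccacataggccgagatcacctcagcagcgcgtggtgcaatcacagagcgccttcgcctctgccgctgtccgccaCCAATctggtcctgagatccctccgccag
Tm7sf2 (chr19:6067851-6068000, minus strand): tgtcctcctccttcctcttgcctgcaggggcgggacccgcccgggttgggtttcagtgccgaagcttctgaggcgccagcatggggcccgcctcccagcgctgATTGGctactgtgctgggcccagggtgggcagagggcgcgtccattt
Mvd (chr8:122443423-122443572, minus strand): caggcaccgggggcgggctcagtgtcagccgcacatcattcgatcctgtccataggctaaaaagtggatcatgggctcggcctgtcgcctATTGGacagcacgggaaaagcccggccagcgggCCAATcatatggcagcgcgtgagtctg
Lss (chr10:76531455-76531604, plus strand): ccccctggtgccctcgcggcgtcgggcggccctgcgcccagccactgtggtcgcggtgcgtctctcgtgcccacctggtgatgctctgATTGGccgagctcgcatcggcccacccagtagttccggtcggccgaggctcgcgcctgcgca
Insig1 (chr5:28071262-28071411, plus strand): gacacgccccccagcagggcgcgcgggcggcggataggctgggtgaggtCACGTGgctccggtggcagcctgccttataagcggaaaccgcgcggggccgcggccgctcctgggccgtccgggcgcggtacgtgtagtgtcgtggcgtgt
Insig2 (chr1:121332590-121332739, minus strand): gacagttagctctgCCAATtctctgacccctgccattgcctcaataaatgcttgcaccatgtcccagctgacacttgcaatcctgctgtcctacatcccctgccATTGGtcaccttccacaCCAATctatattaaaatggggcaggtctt

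In these stretches the NF-Y box nearest the start lies 14 bases before it in Idi1, 20 in Nsdhl, 12 in Hsd17b7, 27 in Mvd, 29 in Cyp51, 45 in Hmgcs1, 47 in Tm7sf2 and 62 in Lss, counted from the first base of the box. Insig1 has an E-box that begins 101 bases before the start and no NF-Y box in the stretch shown. Insig2 has 3 NF-Y boxes there, the nearest 29 bases before the start. A match of letters does not show that a factor was bound in these livers, and a missing match says only that these letters are not in the window.

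**Figure D5:**
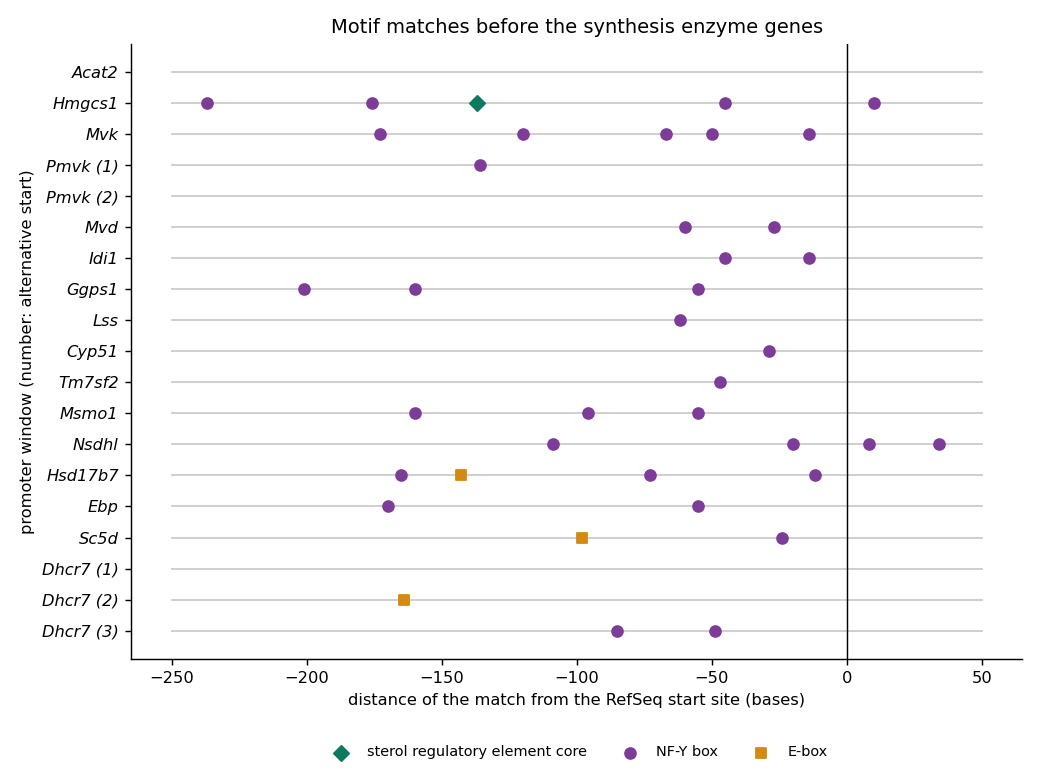
Matches of 3 motifs in the RefSeq promoter windows of 16 synthesis enzyme genes, by distance in bases from the annotated start (one grey line per window, numbered where a gene has several). NF-Y boxes are present for 15 of the 16 genes, and most lie within 100 bases before the start.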

How the data were processed

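Libraries of liver messenger RNA, 3 of the CCl4 group and 3 of the control group, were sequenced. Per the labels' protocols, RNA was purified with a spin-column kit and 1.3 µg went into each library of a SMARTER kit. Per the series' design text, reads with adapters, low quality or undetermined bases were removed and the rest aligned with HISAT2. Per the submitters' processing notes, featureCounts was used. Versions, build, annotation and strand setting are not stated in those sources. The authors deposited raw read counts for each gene. Rows without an Ensembl identifier (443 of 55802) held 0.543 to 0.679% of the counts per library. Symbols came from GENCODE M21 (52083 identifiers matched).

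Genes passing filterByExpr were scaled by TMM and tested with edgeR 4.0.16 in R 4.3.3 (glmQLFit with robust estimation, glmQLFTest, p adjusted by Benjamini-Hochberg over 15579 genes, threshold 0.05). SE is the log2 fold change over the square root of F. Intervals are 95%, and intervals from so few libraries are wide. Pseudocounts of 0.5 CPM served for differences from the control mean. In simulated counts of this comparison (15040 genes tested) the test recovered 92 of 100 genes with a log2 change of 1 and 100 of 100 with a log2 change of 2, with 4 false calls. The simulation gave every gene the same dispersion in both groups. These rates therefore do not carry over to the enzymes, whose median SD of log2 CPM was 0.37 after CCl4 and 0.10 in controls. Alternatives used DESeq2 1.42.0, limma 3.58.1 (voom), other scalings and filters, glmTreat (1.5-fold), a replicate block, and fits without each library in turn. Within groups, libraries differed beyond sampling noise (mean chi-square per gene of 5.19 to 23.0). The members, lists, tests and alternatives were chosen with earlier results of these data known. All 28 members are named. From each list the called gene of smallest adjusted p in each direction and the gene of highest mean CPM are named, except 1 that is not reported here, and the 6 SREBP genes that fell, Ctsb and Abcg5 were added after their values were seen. Of the listed symbols 1 was not matched to an identifier and 1 was not tested.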

Additional observations from a re-analysis of the deposited data

How the results depend on the processing

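Of 420 refits of single members (28 genes under 15 alternatives), 336 kept their direction and side of the threshold, 45 lost a call, 23 gained one and 16 changed sign. The cause was not tested unless stated. All sign changes, of these and of the listed genes Nus1 and Scd1, were of genes without a call in the full fit. Mvd was at 0.087 with upper quartile scaling, 0.16 with library size alone, 0.013 with the stricter filter and -0.55 to 0.25 with 1 library left out. Sqle was at -0.0045 without a filter, -0.014 in limma-voom, -0.012 with the block, and -0.22 to 0.16 with 1 library left out. Srebf2 was at 0.031 with upper quartile scaling, 0.094 with library size alone and -0.17 to 0.022 with 1 library left out, and Soat2 at 0.040 with library size alone. Nus1 was at -0.0051 without a filter and -0.041 to 0.050 with 1 library left out. Scd1 was at 0.073 with upper quartile scaling, 0.14 with library size alone, and -0.18 to 0.14 with 1 library left out. The members called lower, 11 in the full fit, numbered 5 with library size alone, 7 with no filter (which tests 30025 genes), 2 in glmTreat (Scap and Insig2), and 6 to 21 with 1 library left out. Members called higher numbered 2 with library size alone. Over all genes, 4103 were higher and 2177 lower with upper quartile scaling. Library size alone gave 4824 and 1676, and glmTreat, which asks for a 1.5-fold change by construction, 1309 and 380. Over the 5 neighbouring lists (9 higher, 30 lower), library size alone gave 16 higher and 13 lower, upper quartile scaling 18 lower, and glmTreat 4 higher and 3 lower.

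Deviations from the group means of same-numbered libraries correlated at 0.06, 0.02 and 0.09 across genes. Each CCl4 library correlated best with the control of its own number, but control replicate 2 correlated better with CCl4 replicate 1 (0.04). Correlations this weak, from 3 libraries a group, cannot decide whether the shared replicate numbers pair the libraries. With the replicate block, 14 members were called lower and 0 higher, Acat2, Msmo1 and Stard4 being added. With 3 libraries a group, changes of uncalled genes such as Mvd (95% interval -1.10 to 1.10) are poorly bounded.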
